A study of Mus musculus with 3 samples.

Results

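The cytosolic ribosome is built from a small and a large subunit, and each of its proteins is encoded by its own gene, scattered over nearly every chromosome. These genes are transcribed at high rates in almost all cells, typically from short promoters that lack a strong TATA box, and their mRNAs start with a run of pyrimidines through which mTOR signalling adjusts their translation. Regions bound in a Runx1 chromatin immunoprecipitation (ChIP-seq) of mouse spinal cord were examined at the protein-coding genes of this family, chosen by their symbols (Rps and Rpl with a number, Rplp0 to Rplp2, and Rpsa). The family held 84 of 21883 coding genes, 31 of the small and 53 of the large subunit, and 68 of the deposited regions were assigned to them. Rps3a1 and Fau, which also encode cytosolic ribosomal proteins, have symbols outside this rule.

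The study deposited 3 replicates of 1 group, and there was no treated, mutant or input group among the files. Each was an immunoprecipitation with 9 µg of a rabbit polyclonal Runx1 antibody from about 10 µg of chromatin of 10 pooled spinal cords of male C57BL/6J mice aged 8 to 10 weeks, prepared as dissociated cells, fixed with formaldehyde and digested with micrococcal nuclease. In the label of replicate 3 the antibody stands in the tissue field, and its tissue was taken from the title. The cells of a whole cord are mixed, so a region cannot be placed in a cell type, and region lists measure no expression by which the tissue label could be checked. Replicates 1, 2 and 3 had 451, 1641 and 13194 regions. The lowest deposited −log10 q was 2.01, 2.00 and 2.00 in replicates 1, 2 and 3. Neither the labels nor the files used here give read totals or say whether animals were shared between replicates. The fold of a region is the authors' ratio of signal to background at its strongest summit, and it ranks regions only within a list.

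Ribosomal protein genes had regions in replicates 2 and 3 and none in replicate 1. In replicate 3, 55 of the 84 genes had a region (65.5%, 95% exact binomial interval 54.3 to 75.5), against 31.4% of all coding genes. In replicate 2, 9 genes had one (10.7%, interval 5.02 to 19.4), against 5.16% of all coding genes. In replicate 1 the count was 0 of 84, which the interval limits to a share of up to 4.30%, and 1.51% of all coding genes had a region. That interval holds the background share, so a lack of regions in replicate 1 was not detectable at this number of genes. The 9 genes of replicate 2 all had a region in replicate 3 as well, so 9 genes (10.7%) had regions in at least 2 replicates, against 5.43% of all coding genes. The share of ribosomal protein genes minus that of all other coding genes was −1.51, 5.58 and 34.2 percentage points in replicates 1, 2 and 3 (mean 12.8 ± 18.9, SD, n = 3; two-sided exact sign-flip permutation p = 0.5). With 3 replicates this test cannot go below 0.25, and the adjusted permutation p over the 8 comparisons made was 1 for each.

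Both subunits held genes with regions. In replicate 3, 22 of 31 small subunit genes (71.0%, interval 52.0 to 85.8) and 33 of 53 large subunit genes (62.3%, interval 47.9 to 75.2) had a region. In replicate 2 the counts were 2 of 31 small subunit genes (6.45%, interval 0.791 to 21.4) and 7 of 53 large subunit genes (13.2%, interval 5.48 to 25.3). Small subunit genes thus had the higher share in replicate 3 and the lower one in replicate 2. The difference, small minus large, was 0, −6.76 and 8.70 percentage points in replicates 1, 2 and 3 (mean 0.649 ± 7.75, SD, n = 3; two-sided exact sign-flip permutation p = 1). The spread between replicates was larger than the mean difference. The large subunit count included paralogs, with symbols ending in l or l1. All 6 paralogs without a region in replicate 3 were large subunit genes. Without paralogs of either subunit the mean difference was −2.71 percentage points, so the order of the subunits in these shares depends on counting them.

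**Figure D1:**
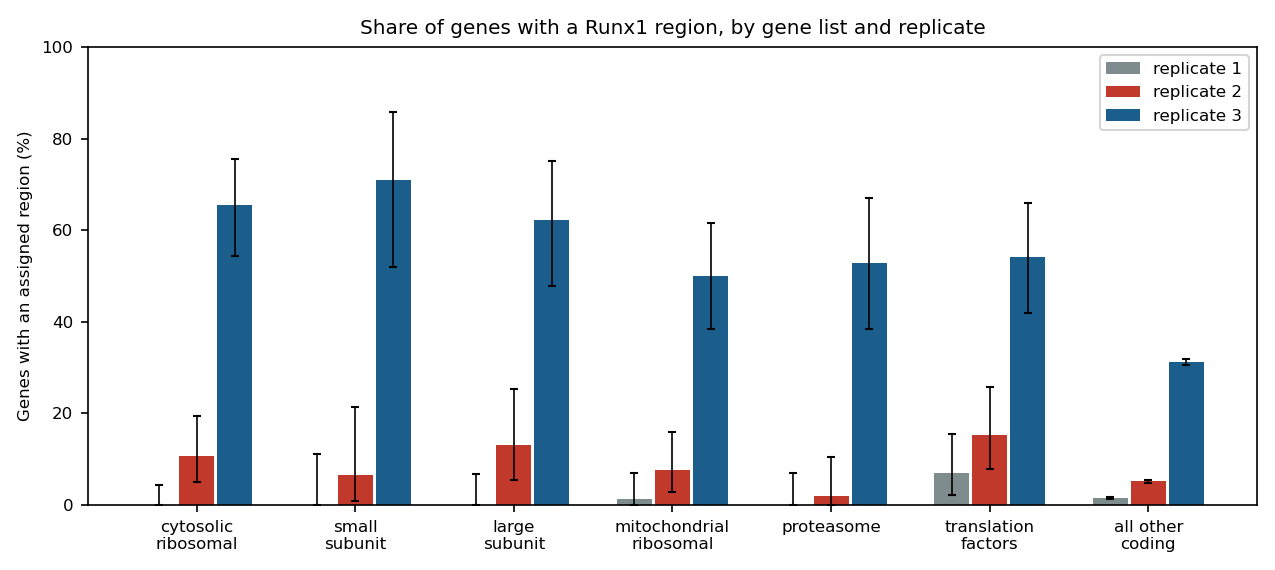
Share of genes with an assigned Runx1 region (vertical axis, percent) by gene list and replicate; bars are shares and lines are 95% exact binomial intervals, which cover counting of genes only. In replicate 3 the cytosolic ribosomal protein genes stood at 65.5% and all other coding genes at 31.2%, and in replicate 1 the ribosomal share was 0.

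Promoter sequence of some of the genes is shown next, as stretches upstream of the start site that lay inside called regions. For Rps19, Rpl34, Rpl10 and Rpl19 the stretch lay within regions of both replicates 2 and 3, and for Rps12 and Rps21, which are among the strongest small subunit genes, within the region of replicate 3. Sequences are from RefSeq (GRCm38.p6), 5′ to 3′ on the strand of the gene, and end at the base before the authors' start site. At most 150 bases of each are given. Capitals mark matches on either strand to short motifs. These were TGTGGT for Runx proteins, the letters CCGGAAG for ETS factors, the letters GCCATNTT for the factor YY1, the letters GGGCGG for the factor Sp1 and the TATA box as TATAAA. The motifs do not contain each other, and a match is one of letters and not a measured site. They lie at chr7:24884342-24884370 (plus strand, Rps19), chr3:130730399-130730548 (minus, Rpl34), chrX:74270689-74270811 (plus, Rpl10), chr11:98026596-98026709 (plus, Rpl19), chr10:23787276-23787425 (minus, Rps12) and chr2:180257227-180257376 (plus, Rps21).
Rps19: gcctccttgttcccgccagacacacaagg
Rpl34: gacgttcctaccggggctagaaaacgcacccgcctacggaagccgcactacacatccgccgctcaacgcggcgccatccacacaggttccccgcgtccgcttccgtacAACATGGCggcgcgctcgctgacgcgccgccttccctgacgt
Rpl10: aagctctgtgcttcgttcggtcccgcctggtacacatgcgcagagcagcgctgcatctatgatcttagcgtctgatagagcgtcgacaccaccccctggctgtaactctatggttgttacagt
Rpl19: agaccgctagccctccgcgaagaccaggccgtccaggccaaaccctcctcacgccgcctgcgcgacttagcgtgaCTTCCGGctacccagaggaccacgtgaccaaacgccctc
Rps12: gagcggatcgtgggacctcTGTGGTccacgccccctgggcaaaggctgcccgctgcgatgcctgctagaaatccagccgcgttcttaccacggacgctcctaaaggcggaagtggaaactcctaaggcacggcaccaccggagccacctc
Rps21: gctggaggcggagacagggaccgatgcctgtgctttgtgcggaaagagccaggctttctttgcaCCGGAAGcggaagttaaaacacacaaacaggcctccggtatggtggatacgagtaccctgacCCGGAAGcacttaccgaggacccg

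Of these stretches, that of Rps12 alone held the Runx letters. Counting from the start site with negative positions upstream, they began at −131, and the summit of the region of replicate 3 lay at −114. Rps21 had a pair of ETS matches at −86 and −24 and its summit at −172, outside its stretch, which began at −150. Rpl19 had an ETS match at −39 and Rpl34 a YY1 match at −42. The stretches of Rps19 and Rpl10 held none of the 5 motifs, but neither stretch reached the summit of replicate 3. That of Rps19 covered only −29 to −1, with the summit at −79, although the summit of replicate 2 lay inside it at −25. That of Rpl10 covered −123 to −1, with the summit at −509.

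Among the small subunit genes, Rps19 carried the strongest region of the family. Rps19, which takes part in the maturation of small subunit rRNA and is mutated in Diamond-Blackfan anaemia in humans, reached 8.66 times background in replicate 3 and 5.26 times in replicate 2, from pileups of 73 and 24 fragments at the summit. Both regions covered the authors' start site on chromosome 7 (24884098 to 24884781 and 24884169 to 24884509, GRCm38), and the summits lay 54 bp apart. The RefSeq start was at 24884592, inside the region of replicate 3 and 83 bp from that of replicate 2. The other gene of this subunit seen in both replicates was Rps27a, which encodes a fusion of ubiquitin with a ribosomal protein. It had folds of 4.56 in replicate 3 and 4.54 in replicate 2, and its summits lay 7 bp apart.

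The next small subunit genes by fold had regions in replicate 3 only. Rps14, a gene of the human 5q deletion syndrome, had a fold of 6.13 and Rps12 one of 5.97. Rps21 had 5.50, Rps15a had 5.47 and Rps26, whose protein lies at the mRNA exit channel, had 5.43. Rps3 and Rps9, whose proteins line the mRNA entry channel, had folds of 4.87 and 3.84, and Rps2, a further protein of that channel, had no region. Rpsa, which also serves as a laminin receptor, had 3.62, and Rps25, needed for some internal ribosome entry sites, had 3.02. Rps29 had 4.88, Rps23 had 4.09 and Rps7 had 3.81 at its stronger region. Rps4x, Rps20 and Rps10 lay between 3.39 and 2.81. Rps6, the substrate of S6 kinase, had the lowest fold of the family, 2.59. Genes of this subunit without an assigned region in replicate 3 included Rps2, Rps13, Rps15, Rps16, Rps18, Rps27 and Rps28.

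Among the large subunit genes, Rpl32 led in replicate 3 and Rpl10 in replicate 2. Rpl32 had a fold of 8.39 from a pileup of 48 fragments on chromosome 6 (115808364 to 115809019), and no region in replicate 2. Rpl34 followed with 6.31 in replicate 3 and 3.91 in replicate 2. Rpl11, which with Rpl5 and 5S rRNA forms the particle that can bind Mdm2, had a fold of 5.42 in replicate 3, and Rpl5 had no region. Rpl13a had 5.15, and Rpl41, which encodes a very short peptide, had 4.95. Rpl39, also a very short protein, had 4.85, and Rpl22, which is dispensable for translation in most mouse tissues, had 4.68. Rpl38, needed for the translation of a group of Hox mRNAs in mouse embryos, had 3.81 and Rpl10a had the same value to this precision. Rplp2 and Rplp1, acidic proteins of the stalk, had 4.13 and 2.95.

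The 7 large subunit genes with regions in both replicates had folds of 2.61 to 6.31 in replicate 3. Rpl10, whose protein is added late in subunit maturation, had 4.60 in replicate 3 and 4.09 in replicate 2. Rpl3, a protein near the peptidyl transferase centre, had 4.44 and 4.04, with summits 6 bp apart. Rpl17 had 4.01 and 3.38, and Rpl27a had 4.10 at its strongest region of replicate 3 and 3.37 in replicate 2. At Rpl27a the region of replicate 2 overlapped only the weaker one of replicate 3, which had a fold of 3.68. Rpl37 and Rpl19 had the lower value in replicate 3, with 2.72 and 2.61, near the bottom of the family, and 3.71 and 3.97 in replicate 2. Folds of separate lists are not on a common scale, so these pairs show rank and not change.

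Grouped by place in the ribosome, a grouping made after the values were seen, genes with and without regions were found in each group, and 31.4% of all coding genes had one in replicate 3. In replicate 3 they were assigned to 6 of 8 genes of the peptide exit tunnel and its rim (Rpl17, Rpl19, Rpl23a, Rpl26, Rpl31 and Rpl39, but not Rpl4 or Rpl35). They were assigned to 2 of 3 genes of the lateral stalk that recruits elongation factors (Rplp1 and Rplp2, but not Rplp0). The 8 paralogs whose symbols end in l or l1 included the testis gene Rpl10l and the muscle gene Rpl3l. Regions were assigned to 2 of the 8 (25%, near the share of all coding genes), Rpl22l1 (fold 3.08) and Rps27l (5.07). Of the other 76 members, 53 had a region in replicate 3 (69.7%). With 2 to 8 genes a group, these counts are descriptions. Large subunit genes without an assigned region in any replicate were Rpl4, Rpl5, Rpl6, Rpl7a, Rpl8, Rpl9, Rpl12, Rpl18, Rpl24, Rpl29, Rpl35, Rpl36, Rpl37a and Rplp0, besides the paralogs Rpl3l, Rpl7l1, Rpl10l, Rpl32l, Rpl36al and Rpl39l.

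**Figure D2:**
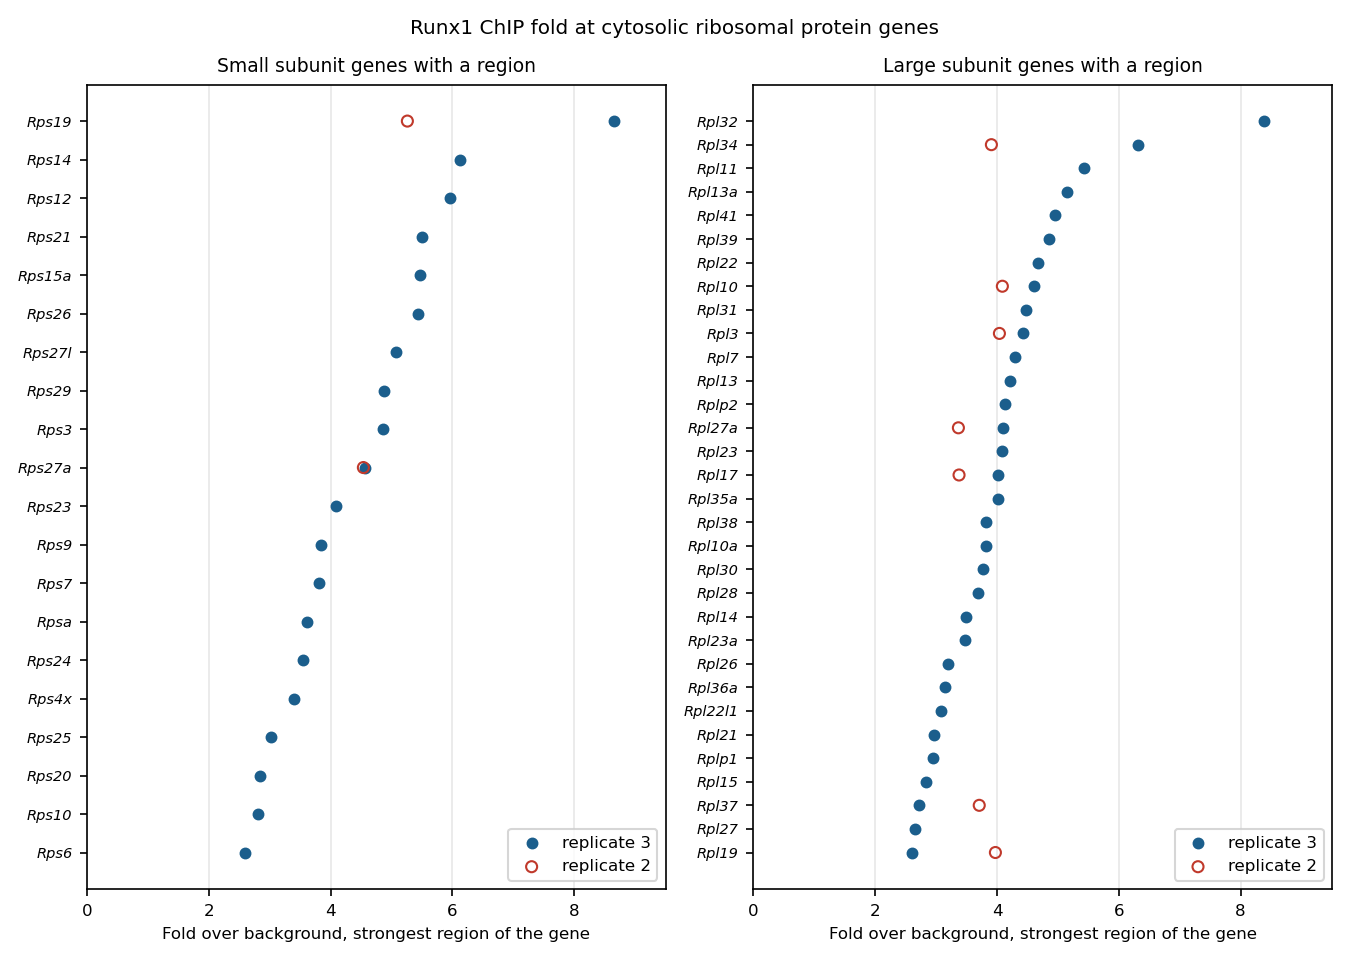
Fold over background (horizontal axis) at the strongest assigned region of the ribosomal protein genes that had one, a few genes left out, small subunit on the left and large subunit on the right; filled points are replicate 3 and open circles replicate 2, 1 value a gene and replicate. Rps19 at 8.66 and Rpl32 at 8.39 stand to the right of all others, and Rps6 at 2.59 is the lowest point.

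In strength the ribosomal regions were spread over the range of promoter regions. The 58 promoter regions of the family in replicate 3 had their median at the 56.0 percentile of fold among all 8256 promoter regions of that list, and 16 of them lay in its top 25% and 15 in its lowest 25%. In replicate 2 the 9 regions had their median at the 48.9 percentile of 1172 promoter regions. On the log2 scale the median of the family minus that of all promoter regions was 0.063 in replicate 3 and −0.0086 in replicate 2 (mean 0.027, n = 2; two-sided exact sign-flip permutation p = 1). A fold of 5 or more was reached by 11 genes in replicate 3 (13.1%), against 8.47% of all coding genes, and by Rps19 alone in replicate 2 (1.19%, against 0.882%). Summit pileups of the promoter regions ran from 12 to 73 fragments in replicate 3 and from 14 to 24 in replicate 2, so each fold rests on few fragments.

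The folds of both subunits overlapped over most of their range. The median fold over regions was 3.94 for 24 small subunit regions and 4.01 for 35 large subunit regions in replicate 3, and 4.90 for 2 and 3.91 for 7 regions in replicate 2. The log2 difference of medians, small minus large, was −0.025 in replicate 3 and 0.32 in replicate 2 (mean 0.15 ± 0.25, SD, n = 2; two-sided exact sign-flip permutation p = 1, where 0.5 is the smallest possible). The sign of the mean rests on replicate 2 and its 2 small subunit regions. Genes at a fold of 5 or more in replicate 3 were 7 of 31 small subunit genes (22.6%) and 4 of 53 large subunit genes (7.55%), against 8.47% of all coding genes. Replicate 2 had 1 of 31 small (3.23%) and 0 of 53 large subunit genes at such a fold, against 0.882%.

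Nearly all regions were in the promoter class. Of the 59 regions of the family in replicate 3, 58 were in the authors' promoter class within 1 kb (98.3%, exact interval with a lower bound of 90.9), against 62.6% of all regions of that list, and in replicate 2 all 9 were, against 71.4%. The exception was a region of Rps24, whose protein acts in small subunit rRNA processing, placed 59918 bp from the assigned start in distal intergenic sequence (chromosome 14, 24551068 to 24551348, fold 3.55). Rps24 had a second region at its promoter with a fold of 3.41. Related families were alike in this. Counted by gene in replicate 3, all 55 ribosomal genes with a region had one in the promoter class. So did at least 37 of 39 mitochondrial ribosomal, 38 of 39 translation factor and 25 of 27 proteasome genes with a region. In replicate 3, 49 of the 59 regions covered the assigned start site (distance 0, 83.1%), with the distal region of Rps24 in the count. The shares set beside it are of promoter regions only. They were 69.8% of all promoter regions and 71.7% of those of coding genes. For mitochondrial ribosomal, translation factor and proteasome promoter regions they were 97.3%, 88.9% and 80%. The farthest promoter region of the family was 246 bp away. By subunit, 19 of 24 small (79.2%) and 30 of 35 large subunit regions (85.7%) covered it. In replicate 2 the order was the other way, with 5 of 9 regions of the family (55.6%) and 65.4% of all promoter regions. There the regions of both small and 3 of 7 large subunit genes covered it, and the median distance was 0 bp for small and 24 bp for large subunit regions. The median distance was 0 bp for both in replicate 3, and the exact sign-flip permutation p over the 2 replicates was 1.

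Summits fell on either side of the start. In replicate 3 the strongest summit lay upstream or on the start at the larger part of the promoter regions, since 26 of 58 were downstream of it (44.8%), compared with 51.6% of 7428 promoter regions of coding genes. The median position was −66 bp for 23 small subunit regions and 0 bp for 35 large subunit regions, where negative is upstream. Replicate 2 had the opposite order, with −88 bp for 2 small and −213 bp for 7 large subunit regions. Within 250 bp of the start lay 77.6% of the family's summits and 65.7% of those of coding promoters. The shares were 91.9% for mitochondrial ribosomal, 92% for proteasome and 73.3% for translation factor genes. In replicate 2 the shares were 66.7% for the family and 66.4% for coding promoters. In replicate 2, 2 of the 9 summits were downstream, those of Rpl10 at 74 bp and Rpl19 at 16 bp.

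**Figure D3:**
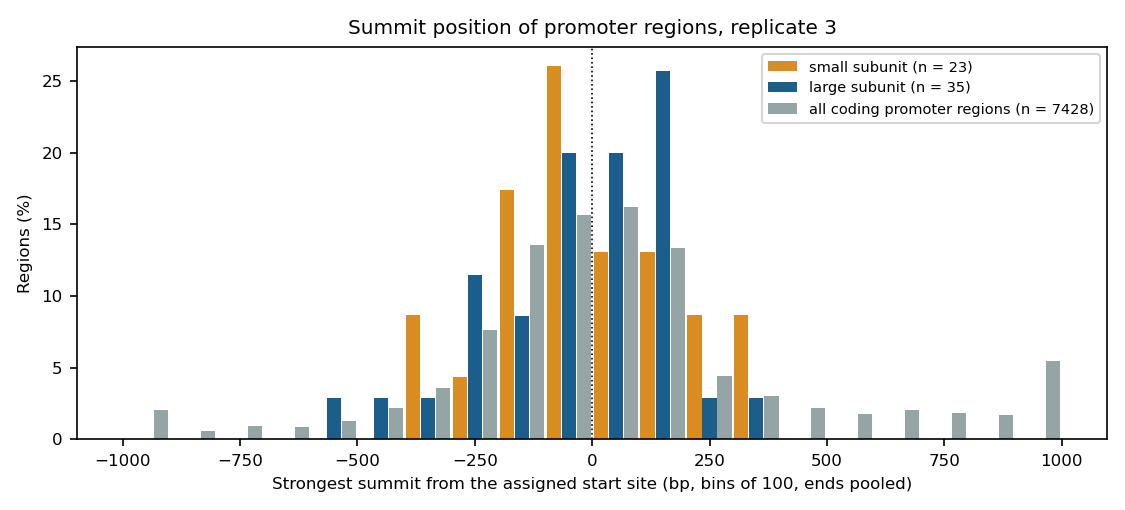
Position of the strongest summit relative to the assigned start site (horizontal axis, bp, bins of 100, positions beyond the ends pooled in the end bins) for promoter regions of replicate 3, as percent of each set; negative is upstream. Small and large subunit summits lie around the start, with medians of −66 and 0 bp, and reach no farther than the bin from −600 to −500 bp, while coding promoter regions fill every bin.

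The regions of the 2 replicates mostly overlapped but were often offset. At least 1 bp was shared with replicate 3 by 8 of the 9 ribosomal regions of replicate 2 (88.9%), compared with 92.1% of all 1641. At 4 genes (Rps27a, Rpl3, Rpl19 and Rpl34) the overlap was at least 50% of both regions. The exception was Rpl17, whose regions lay on either side of the start, 181 bp apart, with summits at 183 bp in replicate 3 and −413 bp in replicate 2. Rpl10 had its strongest summit at −509 bp in replicate 3 and 74 bp in replicate 2, although the regions overlapped by 217 bp. At Rpl37 the regions overlapped by 90 bp, or 32.5% of that of replicate 2, and both summits were upstream, at −297 bp in replicate 3 and −485 bp in replicate 2. Of the 55 genes with a region in replicate 3, 4 had a pair of regions there, namely Rps7, Rps24, Rpl31 and Rpl27a. The family's 58 promoter regions lay at these 55 genes, while the 7428 promoter regions of coding genes lay at 6235 genes. More than 1 region a gene was thus no trait of the family. The share of all coding genes with several regions was not computed.

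**Figure D4:**
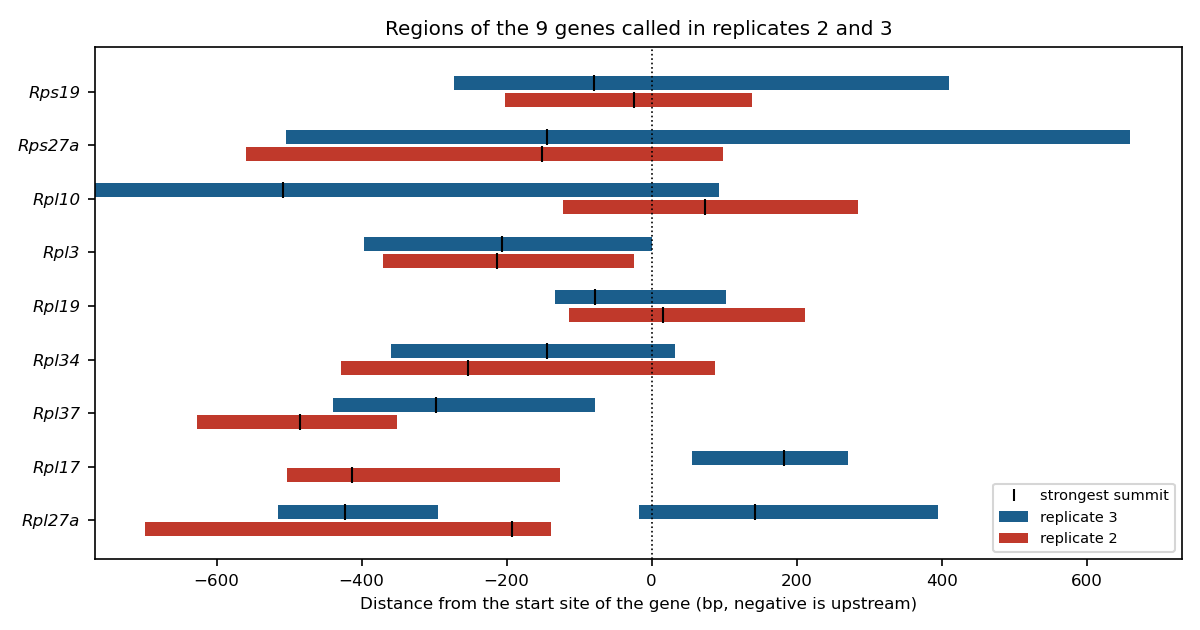
Regions of the 9 genes with regions in both replicates 2 and 3, drawn to scale against the start site assigned to the strongest region of replicate 3 (horizontal axis, bp, negative is upstream); bars are regions and ticks their strongest summits. The bars overlap at 8 genes and are apart at Rpl17.

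Assignment to a single gene left out some ribosomal promoters that share a region with a neighbour. RefSeq promoter windows were at hand for 64 of the 84 genes. By distance of at most 1 kb to these starts, 45 of 64 genes (70.3%) had a region in replicate 3, against 31.6% of other coding genes, and 6 of 64 (9.38%) in replicate 2, against 4.87%. The 5 genes added in this way in replicate 3 were Rps28 (fold 5.26, assigned by the authors to Ndufa7), Rpl12 (3.85, Lrsam1), Rps13 (3.16, the antisense gene Gm44777), Rpl18 (3.04, Sphk2) and Rpl7a (2.93, Med22). The regions of Rps28, Rpl12, Rpl18 and Rpl7a covered the RefSeq start, and that of Rps13 lay 62 bp from it. With any region in the RefSeq gene body or 1 kb around it, a setting added after the data were seen, 65 of 84 genes (77.4%) had a region in replicate 3 and 12 (14.3%) in replicate 2, against 36.5% and 6.23% of all coding genes.

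The Runx letters were found in few ribosomal promoters, and ETS and YY1 letters in more of them than of coding promoters in general. These shares are descriptions with no test. In the RefSeq window from 250 bases before to 50 after each start, TGTGGT or its reverse complement was found in 5 of 76 windows of the 64 ribosomal genes (6.58%) and in 15.0% of 21262 coding promoters. By the authors' assignment, it was in 2 of 51 windows of ribosomal genes with a region in replicate 3 (3.92%), those of Rps12 and Rps25, and in 3 of 25 windows of ribosomal genes with none assigned (12.0%), those of Rps2, Rpl6 and Rpl18. Some of the genes with none assigned carry a region assigned to a neighbour, Rpl18 among them, so the windows were also split by whether any region of replicate 3 overlapped them, a setting added after the data were seen. The Runx letters were then in 3 of 54 overlapped windows (5.56%) and in 2 of 22 others (9.09%). Windows of other coding genes held them in 10.9% where overlapped and 16.5% where not. A called region can reach beyond these 300-base windows, and the lack of a match says nothing of the factor.

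The ETS letters were in 34.2% of ribosomal and 11.6% of all coding promoters, and the YY1 letters in 22.4% and 6.37%. The ETS letters were in 38.9% of ribosomal windows that a region of replicate 3 overlapped and in 22.7% of those it did not, and the YY1 letters in 24.1% and 18.2%. The order was the same in other coding genes, with 21.6% and 7.85% for ETS and 11.2% and 4.58% for YY1. For Sp1 the shares were 68.5% and 36.4% in ribosomal windows and 68.9% and 38.0% in other coding windows, and 46.2% of all coding promoters held these letters. TATAAA was in 10.5% of ribosomal and 12.6% of all coding promoters. A pyrimidine run (CTTTC or CTTTT on the sense strand) began within 5 bases of the start in 17.1% of ribosomal and 2.79% of all coding promoters. Median GC content was 57.8% and 56.3%, and the median ratio of observed to expected CpG was 0.865 and 0.567. By overlap with a region of replicate 3, the CpG ratio was 0.874 with and 0.803 without in the family, and 0.817 with and 0.378 without in other coding genes. Whether base composition has a part in the share of ribosomal genes with regions was not tested.

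**Figure D5:**
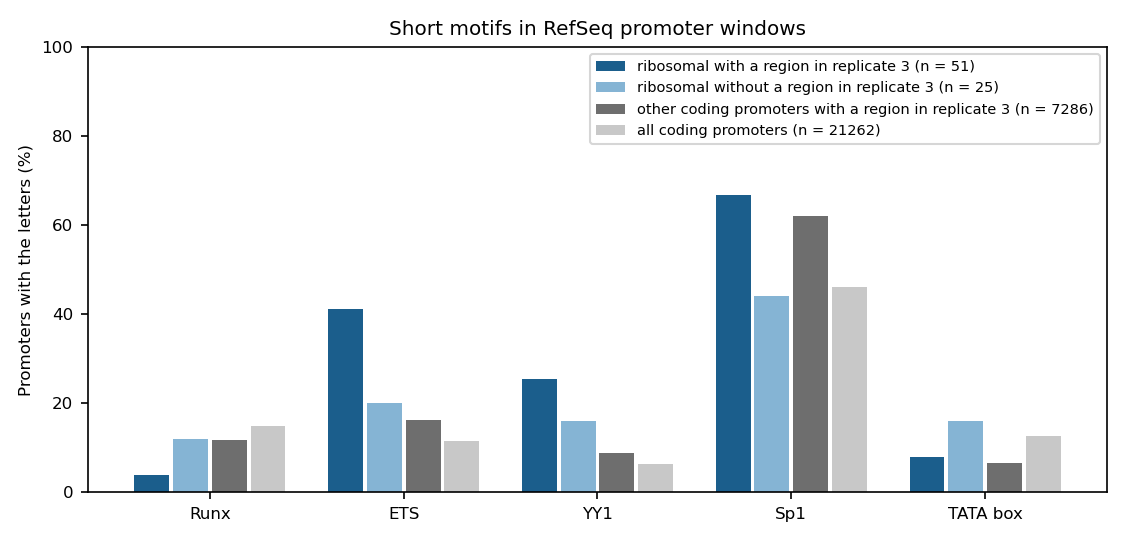
Percent of RefSeq promoter windows (vertical axis) that hold each short motif, for ribosomal protein genes with and without an assigned region in replicate 3, other coding genes with a region, and all coding genes. The ETS letters reach 41.2% and the Runx letters 3.92% in ribosomal promoters with a region.

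Other families of the protein machinery gave shares between those of the ribosomal genes and of all coding genes in replicate 3. There the shares were 65.5% for cytosolic ribosomal protein genes, 50% for 78 mitochondrial ribosomal protein genes, 52.9% for 51 proteasome genes and 54.2% for 72 translation factor genes. In replicate 2 they were 10.7%, 7.69%, 1.96% and 15.3%, and in replicate 1 they were 0%, 1.28%, 0% and 6.94%. Translation factors thus had the higher share in replicates 1 and 2 and cytosolic ribosomal genes in replicate 3 (mean difference, ribosomal minus translation factors, −0.0661 percentage points ± 9.92, SD, n = 3; exact sign-flip permutation p = 1). The mean differences from mitochondrial ribosomal and proteasome genes were 5.74 ± 8.70 and 7.10 ± 6.43 percentage points (SD, n = 3, exact sign-flip permutation p = 0.5 each). Translation factor genes were chosen by symbol (Eif or Eef with a number, and Etf1). The list therefore also held enzymes that modify these factors, such as Eef2k and Eef1akmt1. Eef1akmt1 was among its genes with a region in replicate 2.

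Genes that work with the ribosomal proteins were taken from lists written with earlier results of these data known, and their shares stand against 31.4% of all coding genes in replicate 3 and 5.43% in at least 2 replicates. Of 20 other genes whose mRNAs start with the pyrimidine run, 14 (70.0%) had a region in replicate 3. In at least 2 replicates 3 had one, the elongation factor genes Eef1b2 and Eef2 and the growth-related gene Tpt1. The 14 genes included Rps3a1, a ribosomal protein gene outside the symbol rule. They also included genes counted above among the translation factors, such as Eef1b2 and Eef2. Eef1b2 and Eef2 had regions in all 3 replicates. No ribosomal protein gene did, and the share of all coding genes was 0.836%. Of 40 ribosome biogenesis genes, 21 (52.5%) had a region in replicate 3, and Nop56, a box C/D snoRNP protein, had one in each replicate. Of 20 regulators of ribosomal protein genes, 14 (70.0%) had a region in replicate 3, and 5 had one in at least 2 replicates. These were Gabpa and Gabpb1, the subunits of an ETS factor, with Sp1, Rbpj and Tbpl1.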

How the data were processed

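Runx1 ChIP-seq of 3 replicates of mouse spinal cord was used as deposited. Per the submitters' processing notes, the tools were MACS2 2.1.2, Bowtie2, Trimmomatic 0.38, Picard 2.18.26, SAMtools 1.9 and FastQC, on build GRCm38. Settings, the control library and the annotation tool were not given in the sources used. The deposited peak lists give a score, a fold (ratio) over background, −log10 p and −log10 q per summit, and the authors' tables add a location class, a gene and a distance in bp from the deposited start. Starts are given here from 1.

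A region took the fold of its strongest summit. Pileups were solved from fold and −log10 p under a Poisson model, within 0.001 for all 68 regions of the family, and the solver was tested on simulated data. Coding genes were those of RefSeq on chromosomes 1 to 19, X and Y, and 98.8%, 99.7% and 99.1% of the assigned coding symbols matched in replicates 1, 2 and 3. Shares have 95% exact (Clopper-Pearson) intervals, which cover counting error only. Differences were tested over replicates by exact sign-flip permutation, two-sided, with Benjamini-Hochberg adjustment. Replicates may be technical, so p-values describe these samples. Named genes were those with regions in at least 2 replicates, the 6 of highest fold per subunit in replicate 3, genes with a region outside the promoter class, and genes without a region. A few genes that this rule names are counted but not reported by name here. Members and lists were chosen with earlier results of these data known; further genes are named for their role in the ribosome or as examples, after their values were seen. The alternatives were stricter limits, other member lists, other assignments, summit means, overlap rules and leaving out replicates. The computations used scipy 1.17.1, pandas 2.3.3 and numpy 2.4.6 in Python 3.11.15, with matplotlib 3.10.9 for figures.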

Additional observations from a re-analysis of the deposited data

How the results depend on the processing

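Leaving aside 12 recomputed values that rest on replicate 1, where the family had no region, 52 of 69 kept their direction or stayed within the set margin. The family minus other coding genes stayed positive throughout, at 1.41 percentage points with folds of 5 or more and 8.34 at a q of 1e-05 or lower, and at 2.03 to 19.9 leaving out replicates in turn, lowest without replicate 3. At a q of 1e-05 or lower, genes with regions in at least 2 replicates numbered 3 and those of replicate 2 numbered 3. With folds of 5 or more they numbered 1 and 1, and those of replicate 3 numbered 11. With 50% of both regions overlapping, 4 genes were shared, and leaving out replicates gave 0 to 9, with 0 without replicate 2 or replicate 3. Those counts on leaving out replicates were fixed in advance, since replicate 1 held no region of the family. The counts of 0 are still among the 69 values. Small minus large subunit shares turned to −2.71 percentage points without paralogs and rose to 6.09 at folds of 5 or more. Leaving out replicates, these shares ranged from −3.38 (without replicate 3) to 4.35 (without replicate 2). Their log2 fold difference was −0.089 at folds of 5 or more, in replicate 3 alone, and −0.025 (without replicate 2) to 0.32 (without replicate 3) leaving out replicates. Their difference in median distance was 0 bp at folds of 5 or more and −24 to 0 bp leaving out replicates. The family's median fold relative to all promoter regions turned to −0.053 on the log2 scale at a q of 1e-05 and to −0.12 at folds of 5 or more, with −0.0086 (without replicate 3) to 0.063 (without replicate 2) leaving out replicates. The cause of these changes was not tested. No paired analysis was possible because all replicates belong to 1 group. With 3 replicates and no read totals, neither depth nor animals could be weighed.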

Other observations

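Processed pseudogenes of ribosomal protein genes, which are many in the mouse, were assigned 1 region in replicate 2 and 12 regions at 8 pseudogenes in replicate 3. Neither the number of such pseudogenes nor the share of all pseudogenes with a region was counted. None of these regions lay within 1 kb of the pseudogene's start, so the assignment is one of distant regions. The nearest, of Rps12l1, was at −2684 bp from its start, and the region of Rpl30-ps6 called in both replicates was 13410 bp away in replicate 3 (fold 3.36) and 13534 bp away in replicate 2 (fold 5.70). The strongest, with a fold of 11.2, lay in distal intergenic sequence at −28542 bp from the start of Rps18-ps2.

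Of the genes outside the symbol rule, Rps3a1 had a region in replicate 3 (fold 2.68), and Fau had 0 regions in the 3 replicates.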
